A study of Mus musculus with 180 samples.

Results

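Transcripts of Cd48, Cst7, Cd52, Nkg7, Lat2, Gpr97, Tespa1, Ccl9 and Lat, which encode surface, granule and receptor-complex proteins of lymphoid and myeloid cells, were highest in CD11b+CD48+SK cells. These are 9 of the 14825 genes listed. The 9 genes were selected on the values of these same cells. In particular, 8 of them are among the 10 genes with the largest excess of the mean level in CD11b+CD48+SK cells over the next highest population, and Lat is at rank 90. The ranking covers 3884 genes, those detected in at least 50% of CD11b+CD48+SK cells. Their height in these cells is therefore a description and was not tested.

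Single-cell RNA-seq was available for 180 sorted mouse cells of 4 populations, all on the C57BL/6 background. The 47 CD11b+CD48+SK cells came from bone marrow at Week 8 post-transplantation and were sorted as Lin-Sca1+c-kit+ (SK) cells positive for the donor marker CD45.2, for GFP and for both CD48 and CD11b. They descended from multipotent progenitors (MPP) of Mx1cre/RosaLSL-Hoxb5-EGFP/+ donors, which were given to irradiated recipients treated with pIpC. Mx1-cre, which pIpC induces, removes a stop cassette and so starts Hoxb5 and EGFP from the Rosa26 locus. The 41 wild-type MPP (WT-MPP, Lin-CD48-Sca1+c-kit+CD150-CD135+, with CD11b- in the lineage gate) came from RosaLSL-Hoxb5-EGFP/+ mice of 8 weeks without cre. The 36 adult bone marrow haematopoietic stem cells (BM HSC) came from mice of 8 weeks, and the 56 foetal liver HSC (FL HSC) from embryos of Day14.5, sorted as CD45.2+ SK cells with CD11b and CD150 and with no CD48 gate named. Both kinds of HSC donor are labelled Hoxb5LSL/+, so that every population carries the silent or opened Hoxb5 allele. The CD11b+CD48+SK cells therefore differ from the others in the transgene, pIpC, irradiation of the host and transplantation at once. They also differ in the gates of the sort, as CD48+ and CD11b+ cells where WT-MPP were negative for both. These factors cannot be told apart here, since none of the 4 populations is a transplanted control or a population sorted by the same gates. The labels do not tie cells to animals, and each population therefore counts as 1 sample, no p-value is given, and the SD quoted below is the spread between cells.

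Cd48 and Cd52 encode short proteins held on the cell surface by a glycolipid (GPI) anchor, and CD48 is the ligand of CD244 in the SLAM family. Lat and Lat2 encode transmembrane adaptors that are phosphorylated below antigen and Fc receptors and gather signalling proteins at the membrane, and Tespa1 acts beside LAT in developing thymocytes. Nkg7 and Cst7 are known from the granules of cytotoxic lymphocytes, where NKG7 is a granule membrane protein and cystatin F, the product of Cst7, inhibits lysosomal cysteine cathepsins. Gpr97 encodes an adhesion G protein-coupled receptor of granulocytes, and Ccl9 a CC chemokine of myeloid cells that binds CCR1. Haematopoietic progenitors are known to transcribe some genes of later cell types at a low level, which is called priming.

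The genes were spread over the genome rather than clustered. In GRCm38 (GENCODE M21) Cd48 is at chr1:171682009-171705258 on the plus strand, Cst7 at chr2:150570415-150578944 (plus), Cd52 at chr4:134082448-134095082 (minus), Lat2 at chr5:134600022-134615025 (minus) and Nkg7 at chr7:43437073-43438249 (plus). Lat is also on chromosome 7, at chr7:126363824-126369570 (minus). Gpr97, which the current annotation calls Adgrg3, is at chr8:95017692-95045250 (plus), Tespa1 at chr10:130322870-130364111 (plus) and Ccl9 at chr11:83572919-83578636 (minus). Their longest annotated coding regions run from 74 codons in Cd52 to 542 in Gpr97. Lat2 overlaps Rfc2, a replication factor gene of the opposite strand, and whether strand was used in quantification is not given in the sources used here. Cd48, Cd52 and Lat also overlap an annotated gene each, which are Gm37010, Crybg2 and Mir7058. Among CD11b+CD48+SK cells, Lat2 and Rfc2 had a Spearman's rho of -0.20. Rfc2 was detected in 46 of 47 CD11b+CD48+SK cells and 53 of 56 FL HSC, whereas Lat2 was detected in 46 of 47 and 3 of 56.

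The deposited unit is TPM, which sums to 1000000 in every cell and gives no read depth. A gene was counted as detected at a TPM of 1 or more, and 10856 genes detected in at least 10% of the cells of any population served as the background. The number of genes detected per cell had a median of 4514 in CD11b+CD48+SK cells (3039 to 6791), against 3844 in WT-MPP (2615 to 4751), 5206.5 in FL HSC (3974 to 6789) and 4441.5 in BM HSC (2479 to 5861). Fewer than 3500 genes were detected in 2 CD11b+CD48+SK cells, 11 WT-MPP, 0 FL HSC and 6 BM HSC. Transcripts of the sort markers were only partly seen. Itgam, which encodes CD11b, was detected in 17 of 47 CD11b+CD48+SK cells (36.17%, 95% exact binomial interval 22.67 to 51.48%), and Kit in 33 of 47, so that an absent transcript here does not mean an absent protein. Hoxb5, the induced gene, was detected in 43 of 47 CD11b+CD48+SK cells, against 7 of 41 WT-MPP, 32 of 56 FL HSC and 8 of 36 BM HSC. All intervals below cover the counting of cells only.

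CD11b+CD48+SK cells held nearly the whole group at once. Among them, 37 of 47 cells had all 9 transcripts, 9 cells had 8 and 1 cell had 7. WT-MPP had a median of 3 of the 9 (0 to 6), BM HSC of 1 (0 to 3) and FL HSC of 1 (0 to 4). The number per cell thus did not overlap between CD11b+CD48+SK cells and the other populations. A choice of genes that are highest in these cells favours this. Such a count was not made for other genes, so nothing is read from the separation. Without Lat, the medians were 8, 2, 0 and 1 of 8 genes. The 10 cells that lacked a transcript lacked different genes: Gpr97 in 3 cells, Tespa1 in 3, Lat in 2, and Cst7, Nkg7 and Lat2 in 1 each, with Tespa1 and Lat missing from the same cell. The 9 genes summed to a median of 5898 TPM per CD11b+CD48+SK cell (2408 to 9336), which is 0.59% of the transcripts, against 571.5 in WT-MPP (0.6107 to 1969), 98.72 in FL HSC (0 to 976.2) and 114.8 in BM HSC (0 to 674.6).

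**Figure D1:**
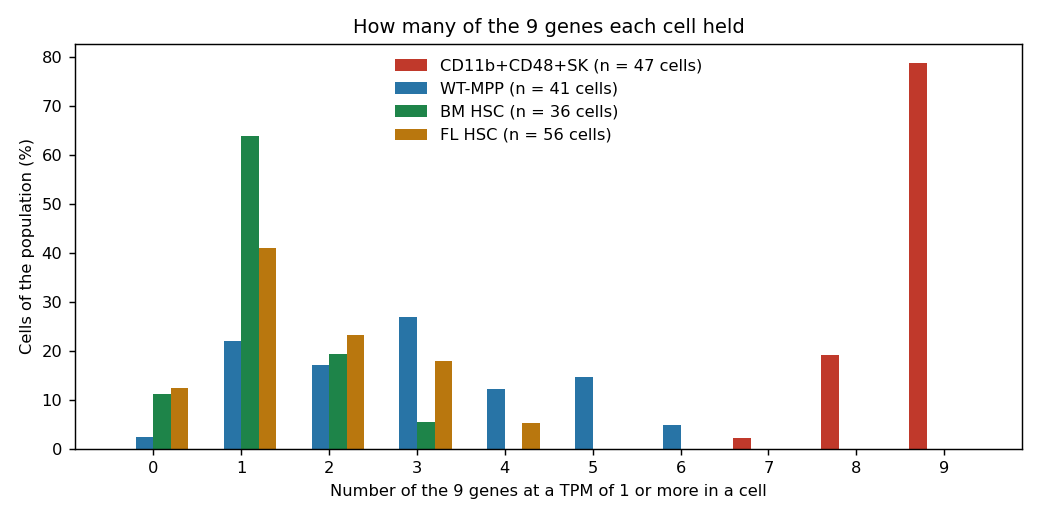
Share of the cells of each population (vertical axis, %) that held 0 to 9 of the 9 transcripts, counted from a TPM of 1 (horizontal axis); colours mark the 4 populations. CD11b+CD48+SK cells sit at 7 to 9 genes and the cells of the other 3 populations at 0 to 6. The genes were chosen as highest in CD11b+CD48+SK cells, which favours this separation.

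The mean of log2(TPM+1) was higher in CD11b+CD48+SK cells than in each of the other 3 populations by 1 or more for 9 of 9 genes, where 1.9% of the background genes met the same rule. Since the genes were chosen on this contrast, nothing is read from that count. The smallest of the 3 differences had a median of 6.23 over the 9 genes and of -0.54 over the background. WT-MPP was the next population for 7 genes, and FL HSC for Cd48 and Ccl9. Taken 1 population at a time, CD11b+CD48+SK cells exceeded WT-MPP by 1 or more in 19% of background genes and were below it by as much in 5.01%. These shares were 13.4% and 11.8% against BM HSC, and 4.02% and 20.9% against FL HSC. For 8 of the 9 genes the difference to the next population was larger than the SD over cells of either, and Lat was the exception. This held for 0.599% of background genes, and again nothing is read from it, since the same contrast chose the genes. Among the other 3 populations, 0 of 18 neighbouring pairs in the order of the means differed by more than the larger SD.

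**Figure D2:**
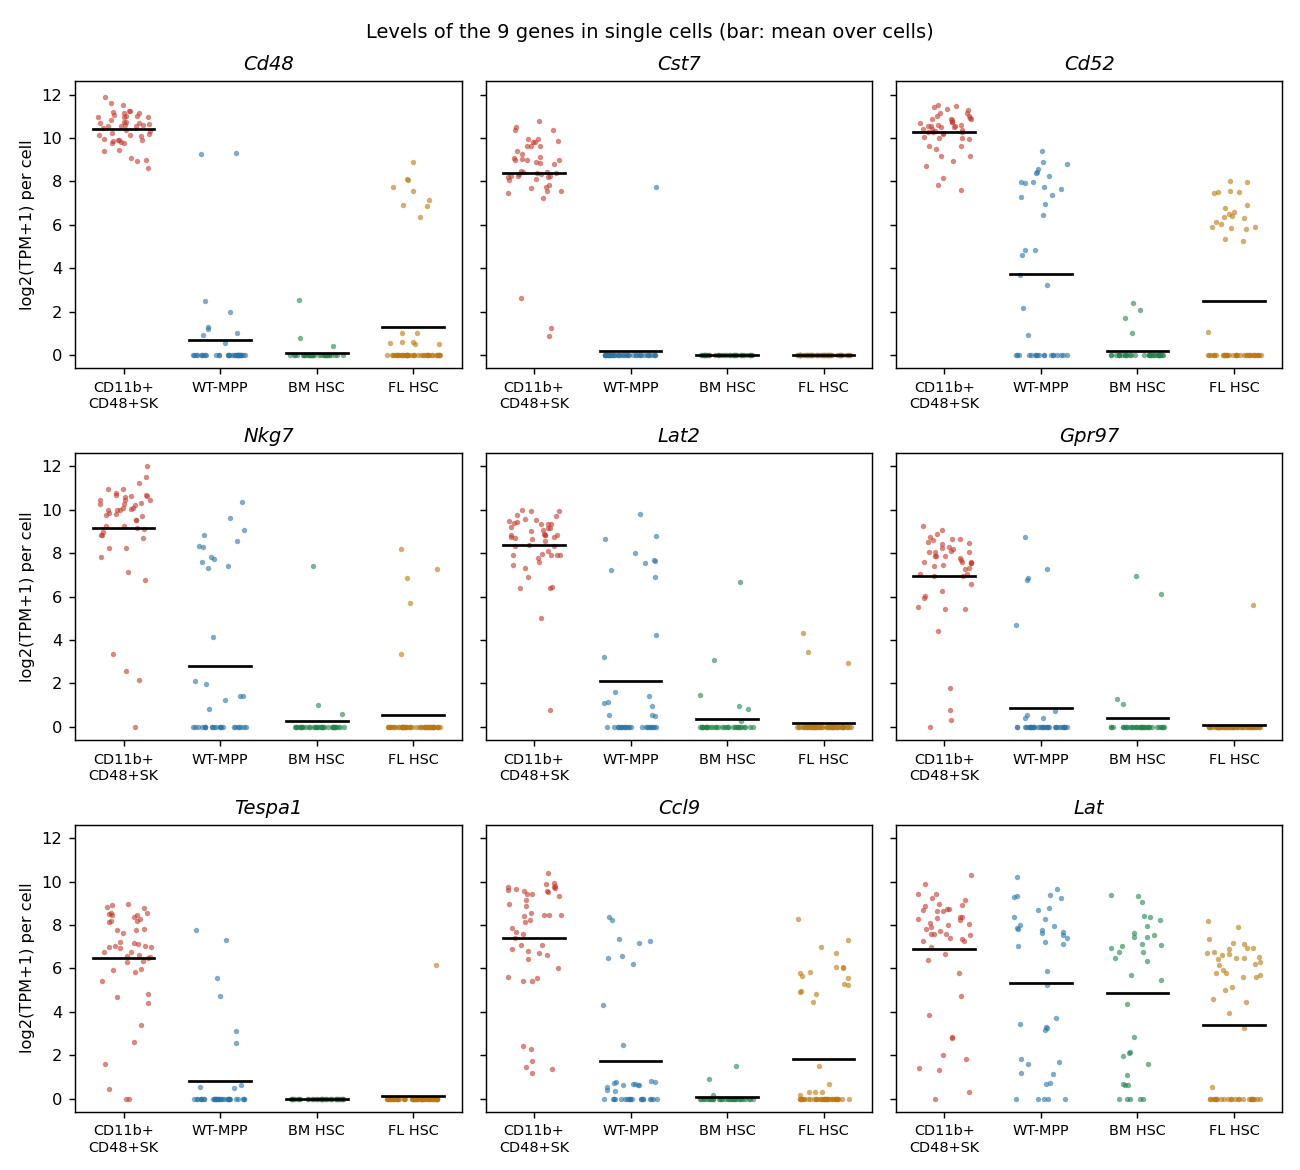
Level of each gene in every cell, as log2(TPM+1) on the vertical axis, for 47 CD11b+CD48+SK cells, 41 WT-MPP, 36 BM HSC and 56 FL HSC; points are cells and the black bar is the mean. Cd48 and Cd52 form a compact band in CD11b+CD48+SK cells, the other genes have cells near 0 there, and Lat is high in many cells of every population.

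Cd48 was a gate of the sort, so its level checks the sort and is no separate finding. The part of the CD48 and CD11b gates in the levels of the other genes was not tested. In CD11b+CD48+SK cells it ranged from a TPM of 397.1 through a median of 1517 to 3752, and 47 of 47 cells had it (95% exact interval 92.45 to 100%). WT-MPP, which were sorted as CD48-, had it in 7 of 41 cells with a median of 0 and a highest value of 629.1. BM HSC had it in 1 of 36 cells, at 4.837, and FL HSC in 10 of 56 cells, with a median of 0 and a highest value of 471.9. Most of these were traces in WT-MPP, where the median of the 7 positive cells was 3.001, whereas the 10 positive FL HSC had a median of 163.3. In total 43 of 47 CD11b+CD48+SK cells were above every other cell. The mean log2(TPM+1) was 10.42 ± 0.73 (SD over 47 cells) in CD11b+CD48+SK cells and 1.29 ± 2.77 in FL HSC, the next population, a difference of 9.13.

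Cd52, the other GPI-anchored gene, was the only one beside Cd48 and Ccl9 that was detected in all 47 CD11b+CD48+SK cells. Its TPM there ranged from 193 through a median of 1448 to 2911. Unlike Cd48, it was common in WT-MPP, at 22 of 41 cells (53.66%, 37.42 to 69.34%) with a median of 8.308 and a highest value of 668. It was in 22 of 56 FL HSC (median 0, highest 256.1) but in 4 of 36 BM HSC, none above 4.294. The groups overlapped only at the low end of the CD11b+CD48+SK cells, of which 40 lay above every other cell. The mean log2(TPM+1) was 10.28 ± 0.91 in CD11b+CD48+SK cells, against 3.72 ± 3.76 in WT-MPP, 2.49 ± 3.24 in FL HSC and 0.20 ± 0.60 in BM HSC.

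The remaining GPI-anchored surface genes did not share this pattern. Here and in the gene groups below, the 9 genes were chosen as highest, so nothing is read from their lead over other genes of a group. Of 9 such genes in the background, only Cd48 and Cd52 were higher than in all 3 other populations by 1 or more, and Procr, which encodes the endothelial protein C receptor found on HSC, was lower than in all 3, with 10 of 47 CD11b+CD48+SK cells against 33 of 41 WT-MPP, 50 of 56 FL HSC and 27 of 36 BM HSC. By the same rule, which 1.9% of all background genes met, 2 of 5 background genes of the SLAM family were higher. These were Cd48 itself and Cd244, its counter-receptor, which was detected in 27 of 47 CD11b+CD48+SK cells (median TPM 4.74, highest 154.5), against 5 of 41 WT-MPP, 1 of 56 FL HSC and 0 of 36 BM HSC. Cd244 exceeded WT-MPP by 2.32 on the log2(TPM+1) scale. Transcripts of both a ligand and its receptor were thus present in this population.

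Cst7 was the gene most restricted to CD11b+CD48+SK cells among the 9. Its TPM ranged from 0.8224 through 352.9 to 1767, and 46 of 47 cells had it (97.87%). A single WT-MPP of 41 had it, at 211.6, and it was listed at 0 in 36 of 36 BM HSC, which allows a share of up to 8.333%, and in 56 of 56 FL HSC, which allows up to 5.357%. That WT-MPP was the only overlap with the positive CD11b+CD48+SK cells, and 38 of these were above it. The difference from WT-MPP in mean log2(TPM+1) was 8.19, from 8.38 ± 2.0 to 0.19 ± 1.21.

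The cysteine cathepsins, the enzymes that cystatins inhibit, did not share its pattern, and none was higher than in all 3 other populations by 1 or more. Ctsc, which encodes cathepsin C, the activator of granule serine proteases, was lower than in all 3 populations, by 1.25 than in WT-MPP, 1.31 than in BM HSC and 2.57 than in FL HSC, and its median TPM was 2.888 against 92.97 in WT-MPP. Ctsh and Ctsf, which encode cathepsins H and F, were also lower than in all 3, with Ctsh in 2 of 47 CD11b+CD48+SK cells and 12 of 41 WT-MPP. The share of all background genes lower than in all 3 was not counted. So nothing is read from the number of such genes in any gene group. Ctsg, a serine protease of myeloid granules that is not a target of cystatins, was higher by 5.17 or more. It was detected in 39 of 47 CD11b+CD48+SK cells, against 0 of 41 WT-MPP, 0 of 56 FL HSC and 1 of 36 BM HSC. Of the 17 cystatins and cathepsins, Cst7 and Ctsg were the only genes higher than in all 3 populations.

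Nkg7 reached the highest single value of the 9 genes. In CD11b+CD48+SK cells its TPM ranged from 0 through 1024 to 4176, with 46 of 47 cells positive. WT-MPP had it in 18 of 41 cells (43.9%), with a median of 0 and a highest value of 1308, above the CD11b+CD48+SK median. It was in 2 of 36 BM HSC (highest 171.2) and 5 of 56 FL HSC (highest 289.7). So the levels overlapped with part of the WT-MPP, and 14 CD11b+CD48+SK cells were above every other cell. The mean log2(TPM+1) was 9.15 ± 2.46 in CD11b+CD48+SK cells and 2.78 ± 3.79 in WT-MPP, a difference of 6.37.

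Of 18 granule genes of cytotoxic lymphocytes that were looked up, 12 are in the deposited values and 11 in the background. Among these 11, Nkg7 and Cst7 were the only 2 higher than in all 3 other populations, while Ctsc and Ctsh were lower than in all 3. Gzmb, which encodes granzyme B, was in 1 of 47 CD11b+CD48+SK cells. The NK and T cell markers that are listed were near absent: Klrb1c, an NK cell receptor, and the T cell genes Cd3g, Cd5, Cd6, Cd28 and Tcf7 were detected in none of the 47 cells. The 4 NK markers listed summed to a median TPM of 0 in CD11b+CD48+SK cells (highest 227.5) and 0 in WT-MPP (highest 1115), and the 7 T cell markers to a median of 0 (highest 94.41) and 0 (highest 192.1). These are 4 of 12 NK markers and 7 of 11 T cell markers looked up. The rest, among them Prf1, Gzma, Cd3e and Cd8a, are not in the deposited values and could not be assessed.

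Lat2 and Lat, the related adaptors, differed in their pattern. Lat2 in CD11b+CD48+SK cells ranged from a TPM of 0.7224 through 428.1 to 1019, with 46 of 47 cells positive. It was in 15 of 41 WT-MPP (36.59%, median 0, highest 898.5), 3 of 36 BM HSC (highest 99.72) and 3 of 56 FL HSC (highest 19.37). The highest WT-MPP values lay within the upper range of the CD11b+CD48+SK cells, of which only 3 were above every other cell. The mean log2(TPM+1) was 8.37 ± 1.56 against 2.13 ± 3.31 in WT-MPP, 0.19 ± 0.83 in FL HSC and 0.37 ± 1.23 in BM HSC.

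Lat was widely present. Its TPM ranged from 0 through 228.4 to 1280 in CD11b+CD48+SK cells (45 of 47 positive), from 0 through 140.4 to 1179 in WT-MPP (34 of 41), from 0 through 83.54 to 673.8 in BM HSC (28 of 36) and from 0 through 22.17 to 293.4 in FL HSC (31 of 56). The populations overlapped almost fully, with 1 CD11b+CD48+SK cell above every other cell and 13 WT-MPP above the CD11b+CD48+SK median. The mean log2(TPM+1) was 6.89 ± 2.73, 5.35 ± 3.50, 4.85 ± 3.34 and 3.42 ± 3.18, respectively, so the difference of 1.54 from WT-MPP was smaller than the SD of either. It fell to 0.65 without the cells under 3500 genes, of which 11 are WT-MPP, to 0.85 with cells scaled by the median ratio, to 0.70 as the difference of medians over cells and to 0.43 as log2 of the mean TPM plus 1, so that under each of these Lat did not reach the difference of 1. By rank, Lat lay between Hk3 (1.57) and Akna (1.53), and Ccl9, the last of the other 8 genes, at 5.56, was followed by Ctsg at 5.17. Dntt, the gene for terminal deoxynucleotidyl transferase, lies among the 8 at 6.10.

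The proteins around these adaptors showed a mixed pattern. Of 26 background genes that act on or below LAT and LAT2, 5 were higher and 1 lower than in WT-MPP by 1 or more, near the background shares. Btk, a kinase that acts with the adaptors, was higher than in all 3 populations, by 1.3 at least, with 45 of 47 cells positive. Lcp2, which encodes SLP-76, the scaffold that LAT recruits, was lower than in all 3, by 1.71 than in WT-MPP. Among 7 background genes for receptor chains, 3 were higher than in all 3 populations, where 1.9% of all background genes were. This list was chosen with earlier results of these data known, so nothing is read from that count. Tyrobp, which encodes the signalling chain DAP12, was in 45 of 47 CD11b+CD48+SK cells (median TPM 383.9), against 15 of 41 WT-MPP, 37 of 56 FL HSC and 3 of 36 BM HSC. Fcer1g, the common Fc receptor chain, was higher by 1.73 at least, and Fcgr2b, the inhibitory Fc receptor, by 2.03 at least. In the adaptor family itself, only Lat2 and Lat of 5 genes were higher than in all 3 populations and Lax1 was lower than in all 3.

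Tespa1 and Gpr97 were the least abundant of the 9 genes by median. Tespa1 ranged from a TPM of 0 through 127.3 to 493.9 in CD11b+CD48+SK cells (44 of 47, 93.62%) and was in 6 of 41 WT-MPP (highest 220.5), 0 of 36 BM HSC and 1 of 56 FL HSC, at 69.98. Gpr97 ranged from 0 through 190.7 to 610.2 (44 of 47) and was in 5 of 41 WT-MPP (highest 431.3), 4 of 36 BM HSC (highest 122.2) and 1 of 56 FL HSC, at 47.73. Both were therefore rare elsewhere. In the WT-MPP that had them the median was 36.25 for Tespa1 and 115 for Gpr97, against 130 and 197.6 in the positive CD11b+CD48+SK cells, and 15 and 4 CD11b+CD48+SK cells, respectively, were above every other cell. The differences from WT-MPP in mean log2(TPM+1) were 5.67 for Tespa1 (6.47 ± 2.33 against 0.80 ± 1.99) and 6.08 for Gpr97 (6.96 ± 2.19 against 0.89 ± 2.31). Gpr97 was the only one of 6 background adhesion receptors higher than in all 3 other populations.

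Ccl9 was, with Cd48, a gene for which FL HSC were the next population by mean level. Its TPM ranged from 1.244 through 301.5 to 1338 in CD11b+CD48+SK cells, with 47 of 47 positive, and it was in 18 of 56 FL HSC (32.14%, median 0, highest 310.2), 10 of 41 WT-MPP (24.39%, median 0.3014, highest 335.1) and 1 of 36 BM HSC, at 1.837. The highest cells of FL HSC and WT-MPP reached the median of CD11b+CD48+SK cells, of which 23 were above every other cell. Mean log2(TPM+1) was 7.40 ± 2.59 in CD11b+CD48+SK cells and 1.84 ± 2.75 in FL HSC, against 1.76 ± 2.84 in WT-MPP and 0.07 ± 0.29 in BM HSC. Of 6 CC chemokine and receptor genes in the background Ccl9 alone was higher than in all 3 populations, while Ccl4, another chemokine, was lower than in all 3, with 18 of 47 CD11b+CD48+SK cells and 31 of 41 WT-MPP positive. Ccr1, the receptor of CCL9, was in no CD11b+CD48+SK cell.

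Markers of myeloid and other cell types moved with the 9 genes only in part. The 15 listed neutrophil and monocyte markers summed to a TPM of 558.7 to 8461 (median 2041) in CD11b+CD48+SK cells, 19.99 to 4568 (median 1483) in WT-MPP, 499 to 3916 (median 1252) in BM HSC and 230.3 to 4653 (median 1754) in FL HSC. Mpo, the myeloperoxidase gene, was higher than in all 3 by 4.88 at least and, with Ctsg, was 1 of 2 such genes of the list, while Elane, Csf1r, Camp, Ltf and Ly86 were in no CD11b+CD48+SK cell. These absent genes were also in no WT-MPP, and in at most 6 FL HSC (Ltf) and 2 BM HSC (Camp). The 8 mast cell and basophil markers summed to a median of 222.7 (0 to 9317) in CD11b+CD48+SK cells, 100.8 (0.6894 to 450.7) in WT-MPP, 371.8 (2.747 to 1336) in BM HSC and 147.8 (0.3903 to 528.1) in FL HSC. Cpa3, the mast cell carboxypeptidase gene, was higher by 5.06 and Mcpt8 by 1.92 at least. Gata2, of the same list, was lower than in all 3, by 1.07 than in WT-MPP, 2.94 than in BM HSC and 1.54 than in FL HSC. The 7 B cell markers summed to a median of 110.8 (0 to 529.1) in CD11b+CD48+SK cells and had medians from 5.899 to 209.2 elsewhere. Cd79b, a chain of the B cell receptor, was in 29 of 47 CD11b+CD48+SK cells with a median of 88.33 and in 26 of 41 WT-MPP. Cd79a and Cd22 were in no CD11b+CD48+SK cell and in at most 2 cells of any other population. The part of any of these cell types in the levels of the 9 genes was not tested.

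The 9 genes varied among CD11b+CD48+SK cells to different degrees. The SD of log2(TPM+1) was smallest for Cd48 (0.73) and Cd52 (0.91), followed by Lat2 (1.56), and was 2.0 or more for the other 6 genes, up to 2.59 for Ccl9 and 2.73 for Lat. The last 2 genes had cells both near 0 and near the top of their range.

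These levels did not rise and fall together. Over the 47 cells, the 36 pairs of the 9 genes had a median Spearman's rho of 0.08, from -0.30 to 0.39, with 12 of 36 pairs below 0. All 7540786 pairs of the 3884 ranked genes, those detected in at least 50% of these cells, had a median of 0.02, with the central 95% from -0.29 to 0.33. Only 2 of 36 pairs reached 0.3, where 3.87% of all pairs did, and 0 of 36 reached -0.3, where 2.31% did. The 2 pairs were Cd52 with Lat2 (0.39) and Cd52 with Gpr97 (0.32). Cst7 with Ccl9 and Cd52 with Nkg7 fell just short of these limits, at 0.30 and -0.30 after rounding. Thus genes that nearly every cell held together were, within the population, about as unrelated in level as genes at large. Cells share a sort and a TPM total, and a cell's reading of each gene also varies with capture, which these values do not separate.

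**Figure D3:**
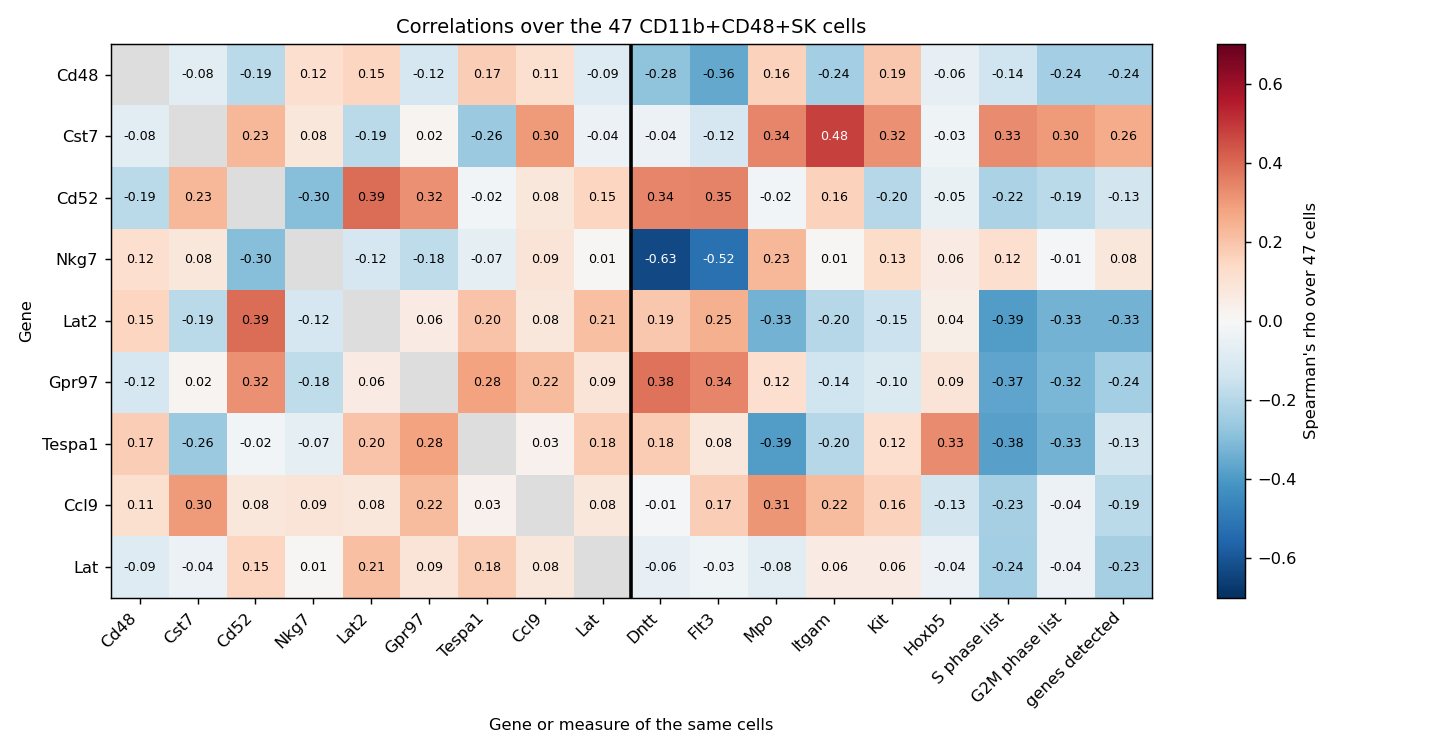
Spearman's rho over the 47 CD11b+CD48+SK cells between the 9 genes (left of the line) and between each gene and 9 measures of the same cells (right): single genes, the mean log2(TPM+1) of cell cycle lists and the number of genes detected. The strongest values are those of Nkg7 with Dntt (-0.63) and with Flt3 (-0.52), while the 36 pairs of the 9 genes lie between -0.30 and 0.39.

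The clearest relation of a member was that of Nkg7 with early lymphoid genes. Dntt and Flt3, the receptor gene of lymphoid-primed MPP, had a rho of 0.76 with each other, and Nkg7 had a rho of -0.63 with Dntt and -0.52 with Flt3. Of all ranked genes, Dntt was the gene with the most negative rho to Nkg7, and for a typical ranked gene this lowest rho was -0.51 (median, central 95% -0.65 to -0.43), so that a value of this size is within what ranked genes reach. The 4 cells with the lowest Nkg7, at a TPM of 0, 3.453, 4.935 and 9.391, had a Dntt TPM of 2476, 2725, 93.31 and 3517. Gpr97 and Cd52 went the other way, with a rho to Dntt of 0.38 and 0.34 and to Flt3 of 0.34 and 0.35. So 2 of 9 genes were at 0.3 or more with Dntt, where 4.53% of ranked genes were, and 1 of 9 was at -0.3 or less, where 4.3% were. With Flt3 these were 2 of 9 (3.86% of ranked genes) and, with Cd48 at -0.36 as the second, 2 of 9 (4.64%). In the 43 cells with both transcripts Nkg7 and Dntt had a rho of -0.61, without the 2 cells under 3500 genes -0.66, with the number of genes held constant -0.63, and as Pearson's r of log2(TPM+1) -0.48. Nkg7 had a rho of 0.23 with Mpo.

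**Figure D4:**
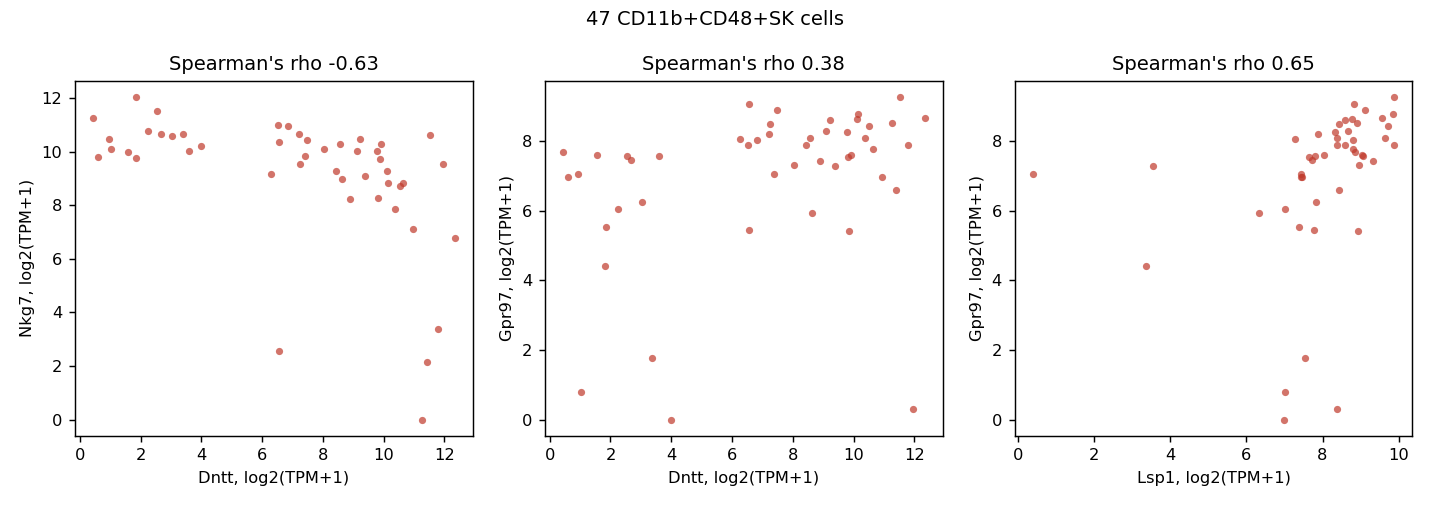
Level of Nkg7 against Dntt, Gpr97 against Dntt and Gpr97 against Lsp1 in the 47 CD11b+CD48+SK cells, both axes as log2(TPM+1); each point is a cell. Nkg7 falls with Dntt (rho -0.63), Gpr97 rises weakly with Dntt (0.38) and more with Lsp1 (0.65), and the cells without Nkg7 or Gpr97 lie at the bottom.

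Cst7 and Tespa1 lay on opposite sides of the myeloid gene Mpo, at a rho of 0.34 and -0.39, and Lat2 was at -0.33 and Ccl9 at 0.31. This is 2 of 9 genes at 0.3 or more, where 4.3% of ranked genes were, and 2 of 9 at -0.3 or less, where 2.76% were. Cst7 also had a rho of 0.48 with Itgam, but this was -0.00 in the 17 cells with both transcripts. Lat2, Tespa1 and Gpr97 were negative with the mean log2(TPM+1) of the S phase list, at -0.39, -0.38 and -0.37, and Cst7 was positive, at 0.33. This is 3 of 9 genes at -0.3 or less, where 5.2% of ranked genes were, and 1 of 9 at 0.3 or more, where 17.3% were. The S phase list had itself a rho of 0.78 with the number of genes detected, while Lat2 had one of -0.33 with that number, Gpr97 -0.24 and Tespa1 -0.13. The part of the number of genes in these relations was not tested. With Hoxb5, Tespa1 had a rho of 0.33 and the other 8 genes lay between -0.13 and 0.09. In all, 81 relations of the 9 genes to 9 measures were computed.

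The genes most like each member were ranked by their rho over the 47 cells. For a typical ranked gene the highest rho over all others was 0.54 (median, central 95% 0.46 to 0.76), and no member went past that range. The closest were Lsp1, a leukocyte actin-binding protein gene, to Gpr97 (0.65), Serpina3g, a serine protease inhibitor gene, to Nkg7 (0.61), and Eif1b to Lat2 (0.59). Cd48 was closest to Srgn, the granule proteoglycan serglycin (0.55), then Tmem60 and Ruvbl1. Ccl9 was closest to the lysozyme gene Lyz2 (0.51), then Ndrg1 and Alkbh5. Cst7 was nearest to Ndufaf1, Pgm2 and Impa2, Cd52 to the translation genes Eef1b2 and Rpl13 and to Ndnl2, Tespa1 to Chmp3, Dtx3 and Bloc1s1, and Lat to Nsd1, Txndc17 and Hoxa7, at 0.47 to 0.56. The next genes were Pgam1 and Gm561 for Nkg7, Rpl35 and Lmo2 for Gpr97, and Supt5 and Sepw1 for Lat2. For Gpr97 and Lsp1 the Pearson's r of log2(TPM+1) was 0.32, against a rho of 0.62 in the 43 cells with both.

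In WT-MPP most of the 9 genes came in few cells. Among the 28 pairs of the 8 genes detected in at least 10% of WT-MPP the median rho was 0.09, from -0.17 to 0.44. The highest was Nkg7 with Tespa1, since 5 of the 6 cells with Tespa1 also had Nkg7. By contrast, 0 of the 7 WT-MPP with Cd48 had Gpr97 or Tespa1. The few cells behind each pair allow no order among these values.

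Promoters were compared for the 6 of 9 genes matched in RefSeq (GRCm38.p6), over the 150 bases before the start of the transcript and on both strands. The Ets core GGAAG was in 5 of 6 promoters (47.7% of 32851 promoters held it), the Runx core TGTGGT in 2 of 6 (8.4%), the Gata core GATAAG in 0 of 6 (3.75%) and the E-box CANNTG in 4 of 6 (47.7%), and the cores may overlap. In the windows of Nkg7 and Lat another annotated gene start lies upstream of the Ets cores. For Cd48 and Gpr97 the RefSeq gene start lies upstream of the whole window. The windows of these genes may therefore hold transcribed bases. Ets and Runx factors are general regulators of blood cell genes, and these letters are a description of the windows and not binding sites. The 2 windows below are shown because for Cst7 and Ccl9 the transcript start and the gene start of RefSeq and the gene start of GENCODE coincide. They are at chr2:150570265-150570414 (plus strand) and chr11:83578637-83578786 (minus strand), are written 5′ to 3′, and have the Ets core or its reverse complement in capitals.
Cst7: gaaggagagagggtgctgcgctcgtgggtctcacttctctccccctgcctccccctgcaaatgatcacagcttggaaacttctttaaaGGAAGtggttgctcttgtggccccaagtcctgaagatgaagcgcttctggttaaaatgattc
Ccl9: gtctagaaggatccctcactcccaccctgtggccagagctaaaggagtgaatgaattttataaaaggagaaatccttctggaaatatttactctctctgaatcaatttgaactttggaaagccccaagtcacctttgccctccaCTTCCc
The core begins 62 bases before the start in Cst7 and 6 bases before it, as the reverse complement, in Ccl9.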

How the data were processed

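Single cells were sorted 1 per library, so no doublet caller was run. Per the labels and the study's methods, the authors aligned reads to mm10 with HISAT2 2.1.0, used SAMtools 0.1.19, and quantified genes with StringTie 1.3.4. The annotation is not given in the sources used here. The deposited values are TPM for 14825 genes, with no counts or depth. Cells were grouped by their labels, 41 of them WT-MPP, and 1 column that matches no label was not used. Means of log2(TPM+1) over cells were compared without a test, after a filter that kept 10856 genes detected (TPM of 1 or more) in 10% of the cells of any population. Spearman's rho was computed for the 3884 genes detected in 50% of the 47 CD11b+CD48+SK cells, over these cells. Alternatives were other pseudocounts, detection limits, cell scaling, summaries and correlations, and leaving out cells under 3500 genes.

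Named genes were the 9 members, the sort markers, Hoxb5, Dntt, members of 23 gene lists higher or lower than all 3 other populations by 1 or more, up to 5 per list, defining markers at 0, rank neighbours, and the 3 genes of highest rho per member. Rfc2, Gzmb and Cd79b, the lowest rho of Nkg7, and the pair details were chosen after their values were seen. The members and lists were chosen with earlier results of these data known. Promoter windows came from RefSeq and positions from GENCODE M21, both on GRCm38, the assembly of mm10. Rank and correlation steps were tested on simulated data. Python 3.11.15, pandas 2.3.3, numpy 2.4.6, scipy 1.17.1 and matplotlib 3.10.9 were used.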

Additional observations from a re-analysis of the deposited data

How the results depend on the processing

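No read depth is given, each population counts as 1 sample, and levels are means over cells, so only the size of the differences can be compared. No paired analysis was possible because no result comes from a test and no cell is matched to another. The median of the smallest difference over the 9 genes was 6.23 with a pseudocount of 1, 4.02 with a pseudocount of 10 and 3.50 as log2 of the mean TPM plus 1, since both weigh cells at 0 less. Of the background genes, 206 were higher than in all 3 populations by 1 or more with a pseudocount of 1 and 79 with a pseudocount of 10. The count of members higher than in all 3 populations fell from 9 to 8, by the loss of Lat, without cells under 3500 genes, with cells scaled by the median ratio, with medians over cells and as log2 of the mean TPM plus 1. The median difference of all background genes from WT-MPP was 0.21, and it was -0.07 with scaled cells and -0.32 as log2 of the mean TPM plus 1. The smallest difference of each of the 9 genes kept its sign under the alternatives run for it. Of the alternatives for the count of members, the median number of members per cell, the median smallest difference and the median rho, 20, these falls to 8 included, stayed within their spread or within 1.5 times the count and the 2 given here moved. For single genes, 68 stayed and 27 moved. Leaving out Lat, and the other settings for Nkg7 with Dntt and Flt3 and for Gpr97 with Dntt, were chosen after seeing the data. Without Lat the median smallest difference was 6.30 and the median rho 0.078.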
